A study of Mus musculus with 2 samples.

Results

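The genes described here are 48 members of the WNT pathway, chosen as a given list by symbol: 4 ligand genes, 2 genes of ligand processing and release, 8 Frizzled receptor genes, 4 genes of co-receptors and R-spondin receptors, 3 Dishevelled genes, 6 genes of beta-catenin and its destruction complex, 7 genes of TCF/LEF factors and their coactivators, 10 of feedback inhibitors and secreted antagonists, and 4 target genes. They stand among 45706 gene IDs counted by RNA sequencing, and all 48 were matched to 1 ID. The cells were GFP-high stem cells of the intestine, taken from mice of the strain Lgr5-EGFP-IRES-creERT2, aged 4 months. The tested condition was fasting, with 1 library, set against ad libitum feeding on standard chow, with 1 library. Both groups carry the reporter allele, in which the Lgr5 locus, itself a WNT target gene, drives the fluorescent protein used for the sort. How long the mice fasted, and how many contributed to each library, is not stated in the labels.

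WNT proteins bind a Frizzled receptor together with the co-receptor LRP5 or LRP6. Dishevelled then restrains a destruction complex, built on APC and AXIN with the kinases GSK3 and CK1, that otherwise marks beta-catenin for breakdown. Beta-catenin that escapes enters the nucleus, joins TCF/LEF factors and switches on target genes, among which are inhibitors of the pathway itself. In the intestinal crypt this pathway maintains the stem cells, and R-spondins strengthen it by sparing Frizzled receptors from the ubiquitin ligases RNF43 and ZNRF3.

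The fasted library held 5020056 counts and the fed library 6985316, so that 1 count equalled 0.199 and 0.143 CPM (counts scaled to a library total of 1000000). Every ratio below is fasted over fed after median-of-ratios scaling, on the log2 scale, and the range in parentheses is its exact 95% Clopper-Pearson interval, which covers counting error only. With 1 library per condition there was no test and no replicate check. A gene was measured when its mean reached 1 CPM and its summed count 20, and it was called higher or lower when the ratio was at least 2-fold and the interval excluded a ratio of 1. In bulk RNA, fewer cells of a type and less RNA per cell cannot be told apart. Of the stem cell markers, Olfm4 and Lgr5 had 41452 and 1709 counts in the fasted library, against 100399 and 3381 in the fed library. Because the sort used the Lgr5 locus, Lgr5 counts are no independent check of the stem cell label. Markers of other cell types were also counted. Of 12 absorptive enterocyte markers 9 were called higher (summed level 3043 CPM in the fasted and 1406 CPM in the fed library). Of 8 goblet cell markers 3 were called higher (1244 CPM fasted, 637 CPM fed), where 2.51% of all measured genes were called so. Of 10 Paneth cell markers 1, Mmp7, was higher and none lower (981 CPM fasted, 1133 CPM fed). The other 8 of the 9 measured ones had negative ratios, and the median log2 ratio of the 9 was -0.33. Their intervals lay below 0 for 5, against 19.2% of all measured genes. Whether these reads came from other cells or from the sorted stem cells was not tested. Stem cell markers summed to 10365 CPM in the fasted and 17022 CPM in the fed library. Of these 9 markers 1 was called lower, where 1.91% of all measured genes were called so. Most of that sum was Olfm4 alone (8257 CPM fasted, 14373 CPM fed). The median log2 ratio of the 9 was -0.40, with 8 negative and 1 positive. The interval lay below 0 for 8 of them, against 26.4% of genes of at least 50 CPM. The 12 stromal and endothelial markers summed to 34 counts in the fasted and 51 in the fed library, mostly from the 2 measured ones, Pdgfrb (18 fasted, 14 fed) and Vwf (13 fasted, 26 fed), while Col3a1, Pdgfra, Dcn and Foxl1 had 0 in both. Of 10 immune cell markers 1 was called lower, against 1.91% of all measured genes, and 0 higher. Their summed level was 165 CPM in the fasted and 200.4 CPM in the fed library. The part that other cell types may have in the ratios below was not tested.

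The pathway as a whole differed little between the libraries. Of the 48 members 39 were measured, 0 were called higher and 1, Apcdd1, was called lower, where 4.42% of all 12026 measured genes were called, 2.51% higher and 1.91% lower. The median log2 ratio of the 39 was -0.10, against -0.02 for all measured genes, and 26 of them were negative and 13 positive (52.1% and 47.9% of all measured genes). Counting intervals lay below 0 for 16 members and above 0 for 4, while the corresponding shares of all measured genes were 19.2% and 16.7%. These shares depend on depth, and the members were better covered than most genes. Among genes of at least 50 CPM the interval lay below 0 for 13 of 27 members, against 26.4% of 5124 genes, and above 0 for 4 of 27, against 22.5%. Exon length moved with these ratios, since long genes had lower ratios in this pair of libraries and the members were longer than other genes (median 5884 bases, against 4372 bases). After subtraction of the typical ratio at each gene's length the members' median was -0.06, with 13 of 39 intervals below 0 and 4 above, where 16.3% of all measured genes lay below and 17.5% above.

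**Figure D1:**
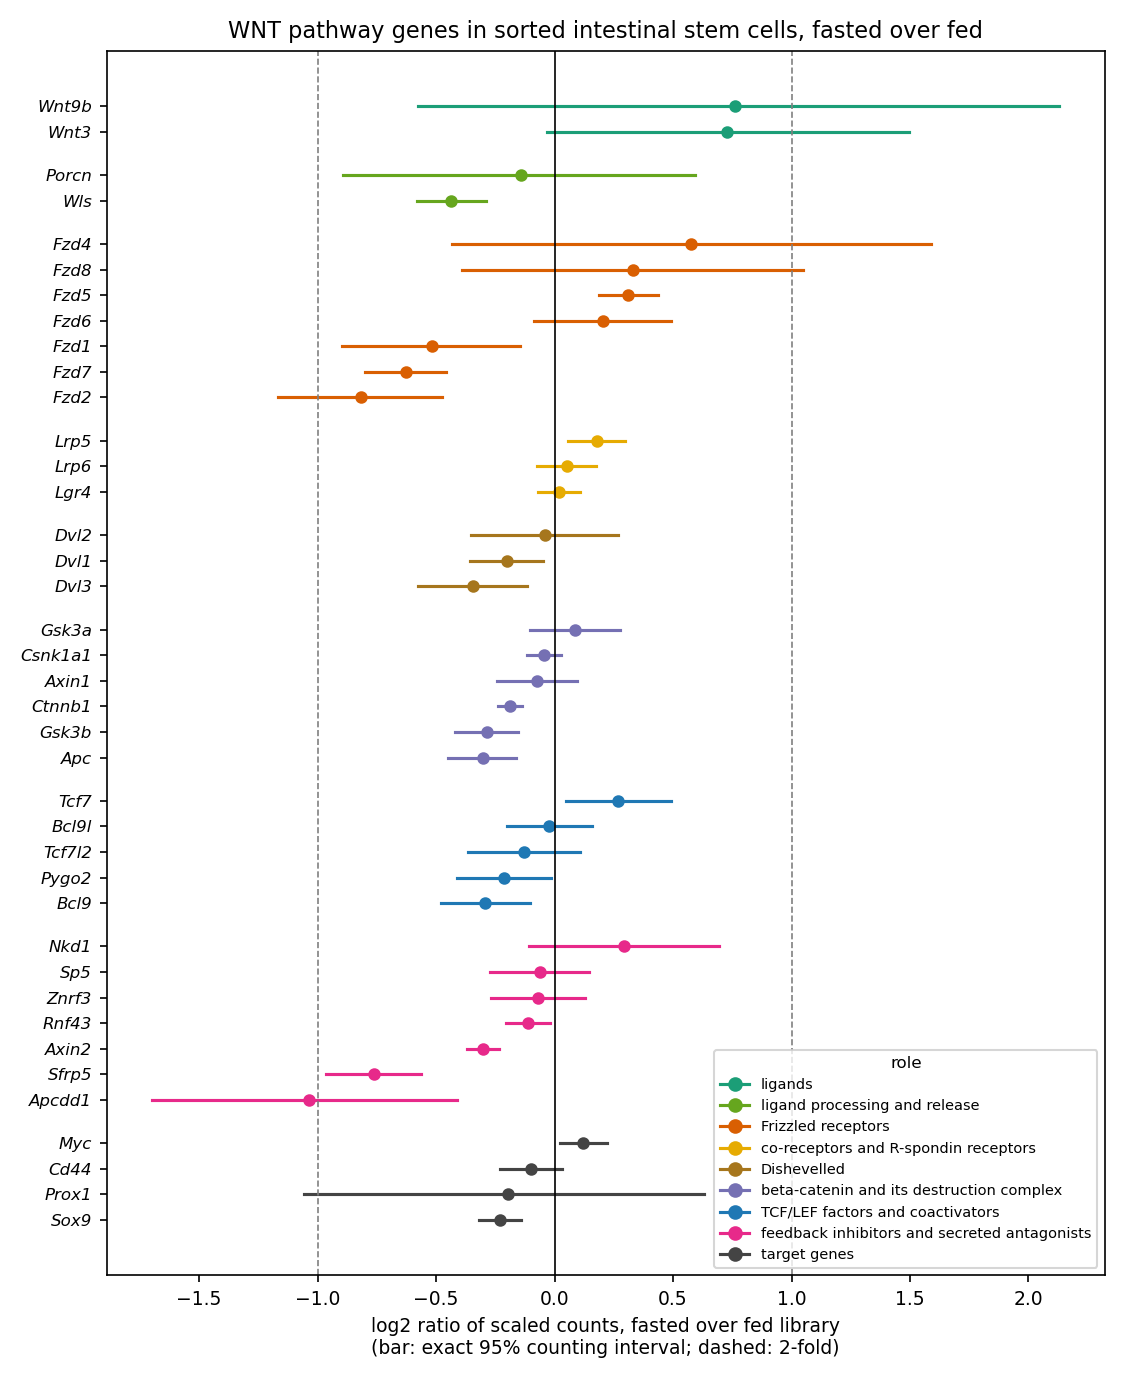
Log2 ratio of scaled counts, fasted over fed, for the 39 measured members grouped by role, with points for the ratio and bars for its exact 95% counting interval. Apcdd1 alone lies beyond the dashed 2-fold lines with an interval that excludes 0, and Fzd1, Fzd2 and Fzd7 lie to the left of 0 while Fzd5 lies to its right.

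Among the receptors, ratios of opposite sign stood side by side within the Frizzled family. The promoters of 3 Frizzled genes on either side of that contrast, and that of the feedback gene Sp5 for comparison, are printed as the 250 bases before the RefSeq start (build GRCm38.p6), 5′ to 3′ on the strand of the gene. Capitals mark the letters CTTTGAT or CTTTGAA, core forms of the TCF/LEF motif, searched on both strands. The windows are Fzd7 at chr1:59481897-59482146 on the plus strand, Fzd1 at chr5:4758217-4758466 on the minus strand, Fzd5 at chr1:64737751-64738000 on the minus strand and Sp5 at chr2:70474673-70474922 on the plus strand.
Fzd7: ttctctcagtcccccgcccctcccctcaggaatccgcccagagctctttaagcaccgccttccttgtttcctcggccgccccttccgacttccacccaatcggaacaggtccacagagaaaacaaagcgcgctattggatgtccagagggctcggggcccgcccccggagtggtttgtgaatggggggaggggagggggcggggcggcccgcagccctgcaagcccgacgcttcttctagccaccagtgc
Fzd1: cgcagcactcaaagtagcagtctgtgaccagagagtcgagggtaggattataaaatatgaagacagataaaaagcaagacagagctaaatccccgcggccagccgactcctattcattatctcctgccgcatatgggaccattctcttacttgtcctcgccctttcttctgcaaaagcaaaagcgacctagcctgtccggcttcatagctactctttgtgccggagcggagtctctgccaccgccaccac
Fzd5: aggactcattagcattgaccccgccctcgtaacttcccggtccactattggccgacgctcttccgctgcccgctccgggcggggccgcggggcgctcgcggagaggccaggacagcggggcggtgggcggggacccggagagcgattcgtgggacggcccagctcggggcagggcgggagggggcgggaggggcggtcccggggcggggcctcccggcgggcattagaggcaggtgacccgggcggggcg
Sp5: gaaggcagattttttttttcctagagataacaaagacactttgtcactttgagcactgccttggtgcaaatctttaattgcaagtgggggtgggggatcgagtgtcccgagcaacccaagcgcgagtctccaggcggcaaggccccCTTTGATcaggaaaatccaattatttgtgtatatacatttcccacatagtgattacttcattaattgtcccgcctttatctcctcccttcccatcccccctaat

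Neither motif occurs in the Fzd7, Fzd1 and Fzd5 windows, and CTTTGAT occurs once in that of Sp5, beginning 104 bases before the start. Of the 31 members with a window, 3 held either motif in at least 1 of their windows (Sp5, Gsk3a and Wnt11), which is 9.68%, against 8.63% of all 27025 genes with a window. Neither motif was found in the 12 members with a window and a counting interval below 0 or in the 2 with an interval above 0, and 2 of the 11 whose interval held 0 had one. The Fzd5 window had 76.4% G and C with 32 CpG pairs, that of Fzd7 65.2% with 17, and that of Fzd1 51.2% with 12, where the median of all 32851 windows was 52.4% with 6. Absence of these letters from 250 bases says nothing of sites elsewhere. Fzd2 had no window, and those of Fzd7 and Fzd1 end upstream of the gene starts that GENCODE gives.

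Fzd7, a Frizzled receptor with a known role in intestinal stem cells of the mouse (chromosome 1, 59482424 to 59486955), had 418 counts or 83.3 CPM in the fasted library, against 912 counts or 131 CPM in the fed library. Its log2 ratio was -0.63 (-0.80 to -0.46). Its closest relatives by sequence, Fzd2 and Fzd1, went the same way. Fzd2 had 99 counts in the fasted and 246 in the fed library, a log2 ratio of -0.82 (-1.17 to -0.47). For Fzd1 the counts were 91 fasted and 184 fed, a log2 ratio of -0.52 (-0.90 to -0.15). All 3 ratios were negative with intervals below 0, although none reached 2-fold.

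Fzd5, which in the mouse is known for its part in Paneth cell maturation (chromosome 1, 64730558 to 64737751), had 972 counts or 194 CPM in the fasted library, against 1106 counts or 158 CPM in the fed library. Its log2 ratio of 0.31 (0.19 to 0.44) was positive with the interval above 0. Fzd8, the nearest relative of Fzd5, had 33 counts fasted and 37 fed, a log2 ratio of 0.33 (-0.39 to 1.05). Fzd6 had 0.20 (-0.09 to 0.49) from 181 fasted and 222 fed counts, and Fzd4 had 0.58 (-0.43 to 1.59) from 19 and 18. These 3 intervals all held 0. Fzd3 had 2 counts in the fasted and 5 in the fed library and was not measured.

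Set against each other within a library, where scaling drops out, the 2 leading receptors changed places. Per exon length, as TPM (counts per exon length, scaled to a total of 1000000), Fzd5 stood first in the fasted library at 90.3 TPM with Fzd7 second at 59.3 TPM. In the fed library Fzd7 was first at 97.8 TPM and Fzd5 second at 77.7 TPM. The ratio of Fzd7 to Fzd5 counts was 0.430 in the fasted and 0.825 in the fed library, a log2 difference of -0.94 (-1.15 to -0.73). Fzd1, Fzd2 and Fzd7 together took 43.0% of the summed Frizzled TPM in the fasted library, against 59.2% in the fed library. The share of Fzd5 and Fzd8 was 44.6% fasted and 31.5% fed, and the count ratio of the first set to the second gave a log2 difference of -0.96 (-1.14 to -0.77). Single contrasts with Fzd5 gave -1.13 (-1.50 to -0.76) for Fzd2, -0.83 (-1.23 to -0.44) for Fzd1 and -0.11 (-0.43 to 0.21) for Fzd6. These 5 and 6 further contrasts below, 11 in all, were chosen after their values were seen. Correction for exon length left Fzd7 at -0.59 and Fzd5 at 0.40.

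**Figure D2:**
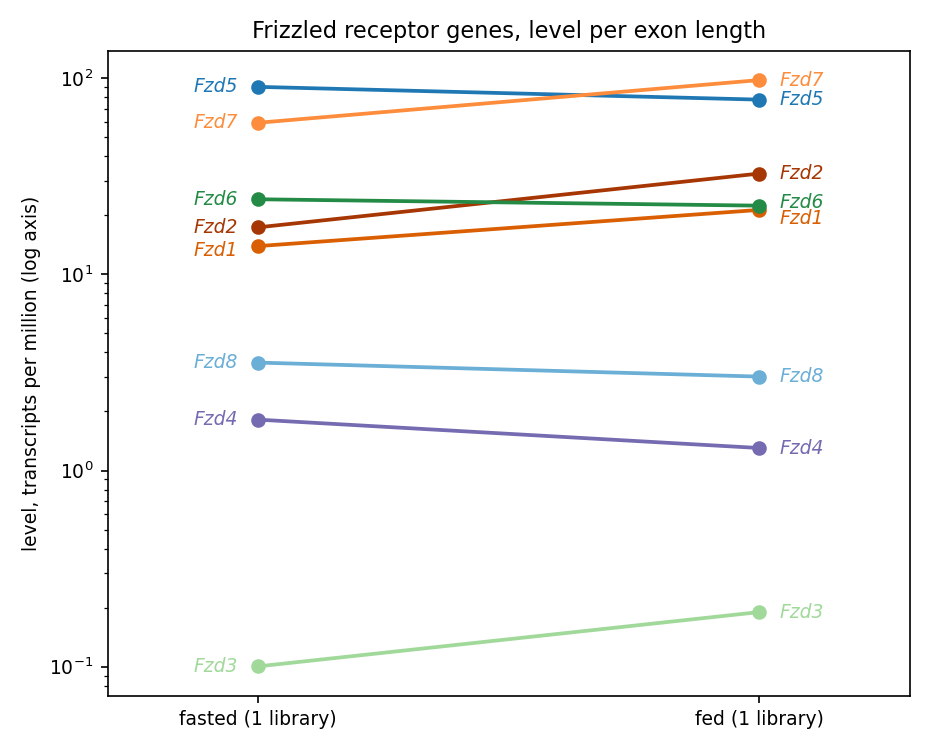
Level per exon length, in TPM on a log axis, of the 8 Frizzled genes in the fasted library on the left and the fed library on the right, with 1 point per gene and library. The lines of Fzd5 (90.3 fasted, 77.7 fed) and Fzd7 (59.3 fasted, 97.8 fed) cross, and those of Fzd2 and Fzd6 cross too.

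The co-receptor and R-spondin receptor genes had a median ratio of 0.05, which was 0.21 after length correction. Lrp6, one of the 2 WNT co-receptors, had 886 counts in the fasted and 1208 in the fed library, a log2 ratio of 0.05 (-0.08 to 0.18). Its relative Lrp5 had 1011 and 1262, a ratio of 0.18 (0.06 to 0.30). After correction for their exon lengths the values were 0.21 (0.08 to 0.33) for Lrp6 and 0.28 (0.16 to 0.40) for Lrp5, both with intervals above 0. Lgr4, an R-spondin receptor and the most abundant receptor among the members at 192 TPM fasted and 202 TPM fed, had 1755 and 2445 counts and a ratio of 0.02 (-0.07 to 0.11), which was -0.0017 under scaling to total counts. Lgr6 had 0 counts fasted and 1 fed. Lgr5, the third R-spondin receptor and the sorted reporter's locus, had a ratio of -0.49 (-0.57 to -0.40), and the ratio of Lgr5 to Lgr4 counts was 0.974 in the fasted and 1.38 in the fed library, a log2 difference of -0.51 (-0.63 to -0.38).

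Ligand genes were scarce in both libraries. Wnt3, a ligand that Paneth cells are known to supply to neighbouring stem cells, had 34 counts or 6.77 CPM in the fasted library, against 29 counts or 4.15 CPM in the fed library. Its log2 ratio was 0.73 (-0.03 to 1.49). Wnt9b had 12 and 10 counts, a ratio of 0.76 (-0.58 to 2.13). Both intervals held 0, so a difference was not detectable at this depth. Wnt6, known as an epithelial ligand, had 5 counts in the fasted and 0 in the fed library. It lay under the filter. Wnt11 had 0 counts in both, which allows up to 0.598 CPM in the fasted and 0.429 CPM in the fed library. Summed over the measured Wnt3 and Wnt9b, with 46 counts in the fasted and 39 in the fed library, the log2 ratio was 0.74 (0.09 to 1.39). That sum rests on few reads, most of them from Wnt3, and its interval covers counting error only. Paneth markers stood at 981 CPM in the fasted and 1133 CPM in the fed library, with 8 of the 9 measured ones negative and 1 positive. Whether the number of Paneth cells had a part in the ligand ratios was not tested.

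Both genes that equip cells to release ligand had negative ratios. Wls, which carries WNT proteins to the cell surface, had 588 counts or 117 CPM in the fasted library, against 1123 counts or 161 CPM in the fed library, a log2 ratio of -0.44 (-0.58 to -0.29). Porcn, whose product attaches the lipid that WNT proteins need for release, had 27 and 42 counts and a ratio of -0.14 (-0.89 to 0.59).

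**Figure D3:**
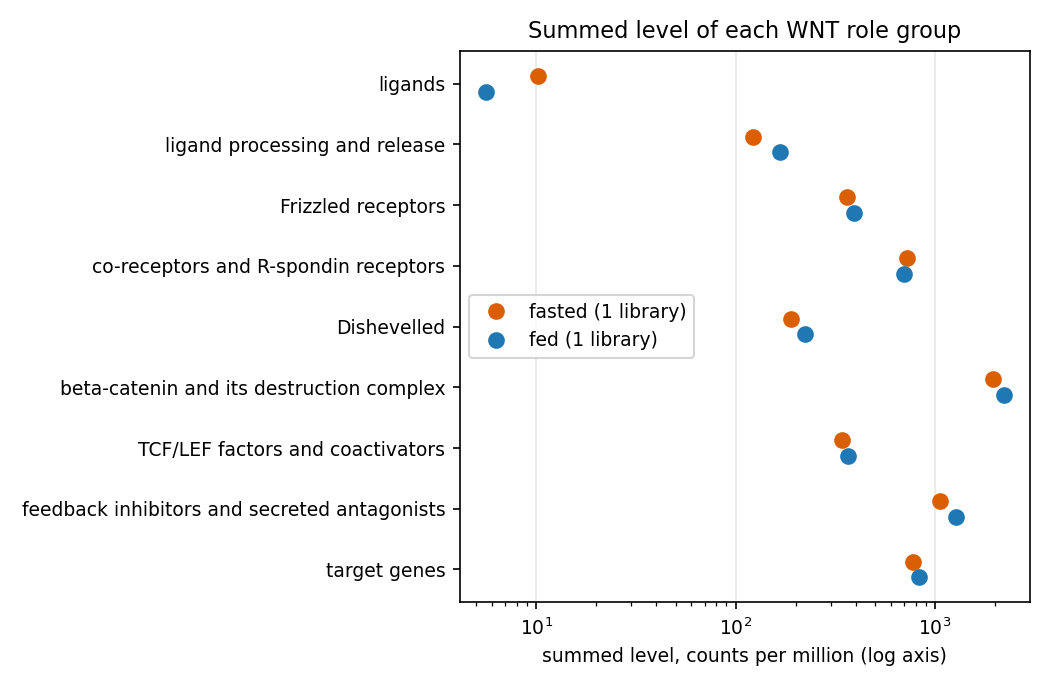
Summed level of each of the 9 role groups over all its members, in CPM on a log axis, with the fasted library above and the fed library below in each row. Ligands (10.2 CPM fasted, 5.58 CPM fed) lie far below beta-catenin and its destruction complex (1970 CPM fasted, 2220 CPM fed), and within each other group the fasted and fed points lie close together.

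Inside the cell, differences were small and mostly negative. Ctnnb1, which encodes beta-catenin (chromosome 9, 120929216 to 120960507), was the most abundant member per length at 632 TPM fasted and 768 TPM fed, with 5104 and 8199 counts. Its log2 ratio was -0.19 (-0.24 to -0.14). Of the 6 genes of this group 5 had negative ratios, 3 with the interval below 0, and the median was -0.13. Apc, the large scaffold of the destruction complex, had 627 counts in the fasted and 1093 in the fed library, a ratio of -0.30 (-0.45 to -0.16), which was -0.14 (-0.28 to 0.01) after correction for its length of 16116 bases. The kinase gene Gsk3b had 745 and 1283 counts and a ratio of -0.29 (-0.42 to -0.15), whereas its paralog Gsk3a had 407 and 541 and a ratio of 0.09 (-0.10 to 0.28). Axin1, the constitutive scaffold, had -0.07 (-0.24 to 0.09) and the casein kinase gene Csnk1a1 had -0.04 (-0.12 to 0.03), which turned to 0.08 after length correction.

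All 3 Dishevelled genes, which pass the signal from the receptor, had negative ratios. Dvl1, the most abundant, had 558 counts in the fasted and 906 in the fed library, a log2 ratio of -0.20 (-0.36 to -0.05). Dvl3 had 248 and 445, a ratio of -0.35 (-0.58 to -0.12). Dvl2 had 148 and 215, a ratio of -0.04 (-0.35 to 0.27). Its exons share 1151 bases with those of Acadvl on the opposite strand, a gene with 1676 counts fasted and 715 fed, so that reads of the pair may not be separated.

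Nuclear factors split by gene. Tcf7, the TCF gene with the highest level per length (77.1 TPM fasted, 68.3 TPM fed), had 315 counts in the fasted and 369 in the fed library, a log2 ratio of 0.27 (0.05 to 0.49). Length correction brought it to 0.17 (-0.06 to 0.39). Tcf7l2, the TCF factor known as essential for the mouse intestinal stem cell compartment, had 243 and 375 counts and a ratio of -0.13 (-0.37 to 0.11). The ratio of Tcf7 to Tcf7l2 counts was 1.296 fasted and 0.984 fed, a log2 difference of 0.40 (0.07 to 0.72). That contrast carries no length correction, which put Tcf7l2 at -0.02 (-0.26 to 0.22), so that both corrected intervals held 0. Lef1 had 7 counts in each library and Tcf7l1 had 0 in each, so neither was measured. Among the coactivators that tie beta-catenin to transcription, Bcl9 had 372 and 643 counts and a ratio of -0.29 (-0.48 to -0.11), Pygo2 had -0.21 (-0.41 to -0.01) and Bcl9l had -0.02 (-0.20 to 0.16). After length correction Bcl9 stood at -0.19 (-0.37 to 0.0006), an interval that held 0. The sign of Bcl9l turned under upper-quartile scaling, at 0.0018.

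Of the 7 measured feedback inhibitors and antagonists 6 had negative ratios, 4 with the interval below 0, and their median was -0.11. Axin2, the inducible scaffold that is widely read as a WNT target (chromosome 11, 108920349 to 108950783), had 2689 counts or 536 CPM in the fasted library, against 4680 counts or 670 CPM in the fed library. Its log2 ratio was -0.30 (-0.37 to -0.23). Rnf43 and Znrf3, the ubiquitin ligases that remove Frizzled receptors, had -0.11 (-0.20 to -0.02) from 1555 and 2371 counts and -0.07 (-0.27 to 0.13) from 347 and 514. Length correction brought Rnf43 to -0.06 (-0.16 to 0.03), an interval that held 0. Sp5, a transcription factor gene and WNT target, had 324 counts fasted and 478 fed, a ratio of -0.06 (-0.27 to 0.14). Nkd1, which binds Dishevelled, had 99 and 114 counts and a ratio of 0.29 (-0.11 to 0.70). Within a library the ratio of Axin2 to Rnf43 counts was 1.73 fasted and 1.97 fed, a log2 difference of -0.19 (-0.31 to -0.07), and Axin2 gave -0.23 (-0.41 to -0.04) against Axin1 and -0.12 (-0.20 to -0.03) against Ctnnb1. Exon length does not drop out of these contrasts, and no corrected contrast was computed. After length correction the single genes stood at -0.24 (-0.31 to -0.17) for Axin2, -0.08 (-0.25 to 0.09) for Axin1 and -0.16 (-0.21 to -0.11) for Ctnnb1.

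Apcdd1 and Sfrp5 both had intervals below 0. Apcdd1, a membrane inhibitor that binds WNT and LRP5 (chromosome 18, 62922231 to 62961179), had 29 counts or 5.78 CPM in the fasted library, against 84 counts or 12.03 CPM in the fed library. It was called lower, with a log2 ratio of -1.04 (-1.70 to -0.41), with 1.91% of all measured genes called so. After correction for its exon length of 12884 bases the value was -0.89 (-1.55 to -0.26), short of 2-fold. Sfrp5, a secreted protein related to the Frizzled ligand-binding domain, had 295 counts or 58.8 CPM fasted and 707 counts or 101 CPM fed, a ratio of -0.76 (-0.96 to -0.57) that was -0.90 (-1.10 to -0.70) after length correction. The ratio of Sfrp5 to Sp5 counts was 0.910 fasted and 1.48 fed, a log2 difference of -0.70 (-0.99 to -0.41). Notum and Dkk3 had 1 count in the fasted and 0 in the fed library, and Wif1 had 0 and 2. At a threshold of 1.5-fold the members called lower were Apcdd1, Fzd2, Sfrp5 and Fzd7, and 0 were called higher, where 5.05% of all measured genes were called lower and 5.11% higher.

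Of the 4 target genes outside the feedback loop 3 had negative ratios and 1, Myc, a positive one. Myc, a driver of growth and a WNT target in the crypt, had 1442 counts or 287 CPM in the fasted library, against 1872 counts or 268 CPM in the fed library. Its log2 ratio was 0.12 (0.02 to 0.22), and 0.01 (-0.09 to 0.11) after length correction. Sox9, a crypt transcription factor, had 1648 and 2727 counts and a ratio of -0.23 (-0.32 to -0.14). The adhesion receptor gene Cd44 had 799 and 1207 and a ratio of -0.10 (-0.23 to 0.03), and Prox1 had 21 and 34 counts and -0.20 (-1.06 to 0.63). Of the 4, then, 1 interval lay above 0, 1 below and 2 held it before length correction, after which that of Myc held 0 too.

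**Figure D4:**
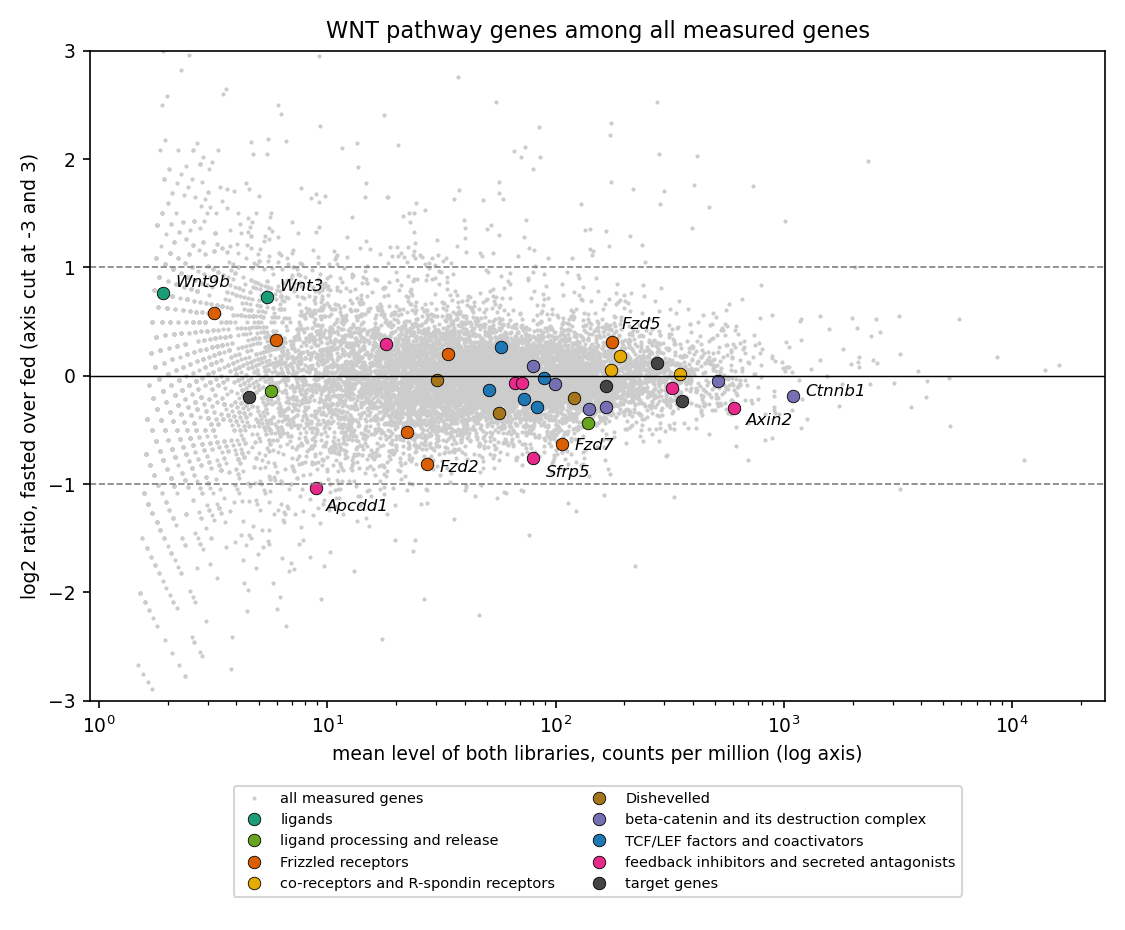
Log2 ratio, fasted over fed, against the mean level of both libraries in CPM on a log axis, with grey points for all measured genes and coloured points for the members by role. Members sit inside the grey cloud at their own level for the most part, with Fzd2, Fzd7, Sfrp5 and Apcdd1 toward its lower side.

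A further 102 genes of the pathway were matched in 7 lists, and 63 were measured. None was called in either direction, where 4.42% of all measured genes were called, and their median log2 ratio was -0.15. Their intervals lay below 0 for 26 and above 0 for 4, where 19.2% of all measured genes lay below and 16.7% above. No length-corrected values are given for these genes. R-spondin genes Rspo1 to Rspo4 had 0 counts in both libraries, as had 8 of 15 other WNT ligand genes, and the 2 measured ones, Wnt2b and Wnt5b, had 0.74 (-0.54 to 2.04) and 0.15 (-1.13 to 1.40). Of 15 measured crypt target genes 12 had intervals below 0, against 26.4% of genes of at least 50 CPM, and the list's median was -0.25. Within it Msi1 was lowest at -0.40 (-0.55 to -0.26) and the homeobox gene Cdx1 highest at 0.22 (0.12 to 0.32), while the stem cell factor gene Ascl2 had 0.10 (-0.04 to 0.25). The Eph receptor genes Ephb2 and Ephb3, which position cells along the crypt, had -0.17 (-0.29 to -0.06) and -0.28 (-0.40 to -0.15). Stem cell markers, which overlap this list, had a median of -0.40.

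Of 9 measured planar polarity genes, which serve the beta-catenin-independent branch, 8 had negative ratios, against 52.1% of all measured genes. Their median was -0.37. Against 19.2% of all measured genes, the interval lay below 0 for 1 of the 9. That gene was Vangl1, with 56 counts in the fasted and 149 in the fed library and a log2 ratio of -0.91 (-1.38 to -0.46). Its partner Vangl2 had 87 and 134 counts and a ratio of -0.13 (-0.53 to 0.27), and Celsr1 was highest at 0.22 (-0.11 to 0.54). Among the receptors of other kinds Ptk7 had 0.20 (-0.08 to 0.49), and the inhibitors ran between Cby1 at -0.40 (-0.85 to 0.03) and Ctnnbip1 at 0.08 (-0.26 to 0.41). Csnk1e, a casein kinase gene, was lowest among the 15 measured kinases and turnover genes at -0.73, with 172 counts fasted and 404 fed and the interval below 0, and Rbx1, a ubiquitin ligase subunit, was highest at 0.26 (0.01 to 0.50). Tle3, a corepressor that binds TCF factors, was lowest among the 15 nuclear cofactors with 404 counts fasted and 932 fed, a ratio of -0.71 (-0.88 to -0.54). The short family member Aes was highest at 0.15 (0.06 to 0.23), and Tle1 had 0.01 (-0.21 to 0.23).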

How the data were processed

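RNA was measured in 1 fasted and 1 fed library of sorted cells, each built from 1 ug of RNA with an Illumina TruSeq kit, per the labels' protocols. The authors deposited whole-number read counts per Ensembl gene, not normalised, and a table of signal values that, tested here, equal the counts divided by 1 factor per library (0.842 fasted, 1.19 fed), with 100% of the non-zero values within 0.02 of whole reads once multiplied back. FastQC, STAR, HTSeq and DESeq and the builds GRCm38 and mm10 are named, without role or version, per the submitters' processing notes. No label or header names the annotation or whether counting used strand, so overlapping and antisense genes may share reads.

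Symbols, exon lengths and coordinates came from GENCODE M21 (GRCm38), which gave a symbol to 45143 of 45706 gene IDs, and promoter sequences from RefSeq (GRCm38.p6). Counts were scaled by median-of-ratios factors, and ratios, intervals (scipy 1.17.1) and calls follow the definitions in the text. TPM are counts per exon length, scaled to 1000000. Contrasts between genes are conditional exact odds ratios. With 1 library a condition no p-value was computed. Intervals and floors cover counting error only, since reads without molecular identifiers are not independent molecules. The script was tested on simulated data. Members, gene lists and named genes were chosen with earlier results of these data known. Any member could be named, with full values for those called, those highest, lowest and most abundant in each role group, and for a fixed set of central genes. From other pathway lists, the highest and lowest gene and Lgr5, Ascl2, Ephb2 and Ephb3 were named, and Vangl2, Tle1, Rspo1 to Rspo4 and Acadvl were added after their values were seen. Alternatives were TMM (edgeR 4.0.16), upper-quartile and total-count factors, the authors' deposited normalised values, no filter, 5 CPM, 1.5-fold and 3-fold thresholds, summed counts, and a running median over 501 genes of similar exon length.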

Additional observations from a re-analysis of the deposited data

How the results depend on the processing

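No paired analysis was possible because each condition had 1 library, and for the same reason no library could be left out. TMM, total-count and upper-quartile factors and the deposited values kept the counts of members called (0 higher, 1 lower), and no role group's median turned its sign under them. Without the low-count filter 1 member was higher (Wnt6), and the Frizzled median of 0.20 became -0.16, as it did at a minimum of 5 CPM, while summed counts for Frizzled receptors gave -0.090. That median therefore has no stable sign, since 4 Frizzled ratios are positive and 3 negative. The number of members lower was 4 at 1.5-fold, 0 at 3-fold and 0 after exon length correction, where Apcdd1 stood at -0.89. Length correction also brought the median of co-receptors and R-spondin receptors to 0.21, against 0.05, and summed counts brought that of the feedback inhibitors to -0.25, against -0.11, where Axin2 holds most counts. Over all measured genes, 302 higher and 230 lower became 176 and 111 at 5 CPM, 614 and 607 at 1.5-fold, and 124 and 88 at 3-fold. Length correction turned the sign of Dvl2 (0.0036), Csnk1a1 (0.08), Bcl9l (0.07) and Znrf3 (0.02), all within 0.1 of 0 before. Ligands, Fzd3, Fzd4, Fzd8, Porcn, Prox1 and Lef1 are limited by depth.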
